A study of Mus musculus with 8 samples.

Results

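miR-210 is a single-copy microRNA (miRNA) whose hairpin precursor gives 2 mature strands, miR-210-3p and miR-210-5p. Both (mmu-miR-210-3p and mmu-miR-210-5p) were taken by name from a table of small RNA counts, as 2 of its 1978 mature miRNAs. Small RNA had been sequenced from CD8+ T cells, which can kill cells infected by viruses, enriched from spleen with magnetic beads. The neonatal group came from C57BL/6 mice 5 to 7 days old (n = 4 libraries) and the adult group from C57BL/6 mice 12 weeks old (n = 4 libraries). The labels name no transgene, treatment or sorting step beyond the beads, and do not say whether a library came from 1 animal or a pool. The p-values below therefore measure only the spread between these libraries, which may be technical.

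miR-210 is the miRNA best known for its response to low oxygen. Hypoxia-inducible factors (HIF), the transcription factors that accumulate when oxygen falls, raise its transcription in many cell types, and its 3p strand then represses messenger RNAs of mitochondrial respiration and of the cell cycle. In mouse T cells it is also induced by activation and acts back on Hif1a, the messenger RNA of a HIF subunit, and it rises in maturing red cell precursors.

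The mature strands and the hairpin are shown because the strand that was counted, its seed and the lack of close relatives decide how its counts can be read. Capitals mark the seed (bases 2 to 8, which pair with target messenger RNAs) in the strands, and both mature strands in the hairpin. Sequences are from RefSeq on the mm10 assembly, written 5′ to 3′.
miR-210-3p: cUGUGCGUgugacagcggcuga
miR-210-5p: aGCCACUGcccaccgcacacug
Mir210 hairpin: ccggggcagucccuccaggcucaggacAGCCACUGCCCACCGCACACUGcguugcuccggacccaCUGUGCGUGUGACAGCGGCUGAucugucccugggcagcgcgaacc

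The hairpin lies on the minus strand of chromosome 7 (mm10, chr7:141221384-141221493), with the 3p strand at 141221407 to 141221428 and the 5p strand at 141221445 to 141221466. It is intergenic in GENCODE M21, where no other gene overlaps it and the nearest protein-coding genes are Rassf7 at 2726 bases and Phrf1 at 7291 bases. In the predicted fold of the hairpin (minimum free energy of -48.0 kcal/mol) 16 bases of the 3p strand paired with the 5p strand. None of the other mature mouse miRNAs in RefSeq carries either seed, and the closest of them differs from each strand by 7 single-base edits. All deposited values of both strands were whole numbers, on 1 precursor, with no fraction of the kind left by reads shared between miRNAs. With 63.6% G and C, the 3p strand is richer in these bases than the median mature miRNA (52.2%).

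miR-210-3p was a low-abundance miRNA that was higher in all neonatal libraries. It had 51, 97, 64 and 86 reads in neonatal libraries 1 to 4, and 3, 9, 11 and 9 reads in adult libraries 1 to 4. The neonatal libraries held 1454421 to 2416060 counts over all miRNAs and the adult ones 1281032 to 2606630, so the totals of the groups overlapped. The groups did not overlap: the lowest neonatal read count was 51 and the highest adult one 11. In bulk RNA of this kind, a smaller share of cells that express the miRNA and a lower level per cell cannot be told apart.

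Levels are given from here as counts scaled to depth (CPM) with TMM factors, which take the bulk of the miRNAs as equal between libraries. On this scale miR-210-3p stood at 27.2, 37.0, 27.9 and 30.7 CPM in neonatal libraries 1 to 4, and at 2.91, 6.30, 5.23 and 4.51 CPM in adult libraries 1 to 4. The neonatal libraries lay close together and adult library 1, at 3 reads, was the lowest of the 8. The mean was 30.7 ± 4.46 CPM in neonatal libraries, against 4.74 ± 1.42 CPM in adult libraries (SD, n = 4 each). The neonatal library with the lowest level still stood 4.32-fold above the highest adult one.

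**Figure D1:**
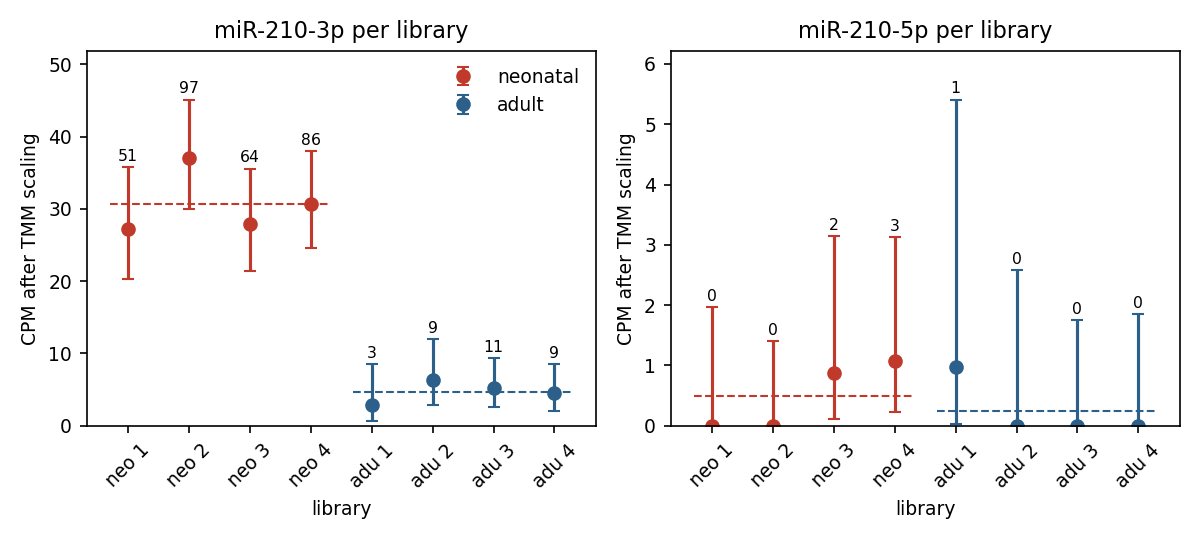
Level of miR-210-3p (left) and miR-210-5p (right) in each library, in CPM after TMM scaling, with exact 95% Poisson intervals as bars, the read count above each bar and dashed lines at the group means. The 4 neonatal points of miR-210-3p (27.2 to 37.0 CPM) lie above the 4 adult points (2.91 to 6.30 CPM) with no overlap of the intervals, whereas miR-210-5p has at most 3 reads in any library.

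The log2 fold change of miR-210-3p, neonatal over adult, was 2.65 ± 0.27 (SE), a 6.28-fold difference with a range of 5.21- to 7.57-fold at 1 SE (edgeR's quasi-likelihood test, Benjamini-Hochberg adjusted p = 3.69e-06 over 375 tested miRNAs). Of the tested miRNAs, 63.2% passed an adjusted p under 0.05 in either direction, and 29.1% were higher in neonatal libraries. A call as such was therefore common in this comparison, and the size of the change and its error describe miR-210-3p better. Neonatal libraries lay wholly above adult libraries for 26.4% of the tested miRNAs. An exact permutation test on the mean CPM, two-sided over the 70 divisions of the libraries, gave p = 0.0286, the smallest that 4 against 4 allows. Scaling by library totals instead of TMM moved the fold of miR-210-3p to 9.68, or 3.27 ± 0.26 on the log2 scale, a shift of 0.625 on average in the log2 fold changes of all tested miRNAs.

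Library numbers 1 to 4 occur in both groups, and miR-210-3p was higher in the neonatal library of each number. The ratio was 9.34 for number 1, with a counting interval of 3.02 to 46.8 that reflects the 3 adult reads. It was 5.87 (2.97 to 13.2) for number 2, 5.33 (2.79 to 11.2) for number 3 and 6.81 (3.42 to 15.4) for number 4. The 4 intervals overlap. With reads summed over libraries, 298 neonatal against 32 adult reads gave a ratio of 6.37 (95% counting interval 4.41 to 9.48). These intervals hold no more than counting error, and PCR copies were not marked by molecular identifiers.

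Counting error made up much of the spread of miR-210-3p. Its level varied by 14.5% between neonatal libraries (coefficient of variation, n = 4), where counting alone at these depths gives 11.7%. In adult libraries it varied by 30.0%, where counting alone gives 36.8%. The differences among the 4 adult libraries, adult library 1 included, were thus within what reads of this number give by chance of sampling. edgeR's biological coefficient of variation was 17.2% for miR-210-3p, an estimate moderated with the other miRNAs, and 21.4% for all miRNAs together.

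By rank miR-210-3p stood higher in neonatal than in adult libraries. It ranked 207th to 228th by read count in neonatal libraries, of 688 to 787 miRNAs with a read. In adult libraries it ranked 317th to 401st of 608 to 685. It took 35.1 to 45.8 CPM of the unscaled library totals in neonatal libraries and 2.34 to 4.96 CPM in adult libraries. The ranks of different miRNAs also carry the ligation preference of small RNA kits. The comparison of miR-210-3p between libraries is free of it only if all libraries were prepared alike, which was not checked.

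Among the 375 tested miRNAs miR-210-3p had the 13th largest log2 fold change and the 258th highest mean level (4.31 log2 CPM). Of the 12 miRNAs with a larger positive change, 8 were less abundant than miR-210-3p and 4 more abundant. The 45 other miRNAs within 0.5 log2 CPM of its level had a median SE of 0.29, near the 0.27 of miR-210-3p. Of these 45, 18 were called higher in neonatal libraries and none had a larger positive change.

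**Figure D2:**
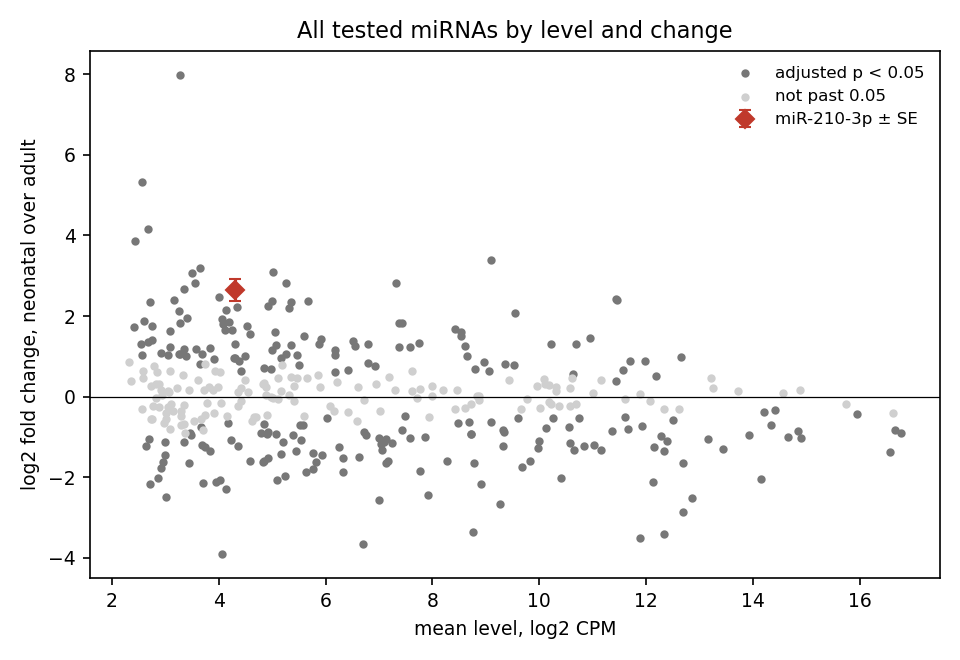
Mean level (log2 CPM) against log2 fold change, neonatal over adult, for the 375 tested miRNAs, with miRNAs past an adjusted p of 0.05 in dark grey, the others in light grey and miR-210-3p as a red diamond with its SE. miR-210-3p, at 4.31 log2 CPM and 2.65, lies above all miRNAs within 0.5 log2 CPM of its own level.

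The other strand, miR-210-5p, was close to the limit of detection in both groups. It had 0, 0, 2 and 3 reads in neonatal libraries 1 to 4, and 1, 0, 0 and 0 reads in adult libraries 1 to 4. No library exceeded 3 reads, the limit that a count of 0 allows, which equals 1.07 to 1.60 CPM in neonatal libraries, against 1.43 to 2.91 CPM in adult libraries. The groups overlapped, and no fold is given. Its mean was 0.486 ± 0.567 CPM in neonatal libraries, against 0.243 ± 0.485 CPM in adult libraries (SD, n = 4 each), a difference of 0.243 CPM (exact permutation test, two-sided, p = 0.714). A difference in miR-210-5p as large in ratio as that of miR-210-3p was not detectable at this depth, and miR-210-5p did not pass the filter on low counts.

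Nearly all reads of the hairpin were thus from the 3p strand, the one known as its guide. miR-210-5p gave 5 of 303 hairpin reads in neonatal libraries (1.65%, exact 95% binomial interval 0.538% to 3.81%) and 1 of 33 in adult libraries (3.03%, interval 0.0767% to 15.8%). The interval of the adult share contains that of the neonatal share. Over all libraries 6 of 336 reads were 5p (1.79%). An exact permutation test of the share between the ages (two-sided) gave p = 0.60, which with 6 reads can show little, and the direction turned without the single 5p read of adult library 1.

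The seed of miR-210-3p pairs with the letters ACGCACA, read on the sense strand of 3′ untranslated regions (UTRs). Among 20981 mouse genes with a 3′ UTR in GENCODE M21, 639 (3.05%) hold this 7-base match, and 1708 (8.14%) hold CGCACA, the match to bases 2 to 7, which the longer match includes. Of 12 genes reported as miR-210 targets, mostly in human cells, 3 hold the 7-base match (Efna3, Gpd1l and Fgfrl1) and 2 only the shorter one (E2f3 and Ndufa4). Iscu, an iron-sulfur cluster scaffold and a classic target, and Hif1a hold neither in the longest annotated 3′ UTR. The first match of each of the 3 genes is printed with its flanks, on the transcript's strand, with the match in capitals.
Efna3, chr3:89314665-89314687, minus strand: gacaggacctatgcaACGCACAg
Gpd1l, chr9:114902218-114902240, minus strand: caactacagacacacACGCACAt
Fgfrl1, chr5:108706410-108706432, plus strand: cagccagattcacacACGCACAt

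Efna3 encodes an ephrin ligand of the cell surface, Gpd1l a relative of glycerol-3-phosphate dehydrogenase and Fgfrl1 a receptor related to those of fibroblast growth factors. None of these messenger RNAs was measured in the small RNA libraries, so the matches describe sequence and not repression.

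Other miRNAs of the hypoxia response did not move as one. Of 14 miRNAs reported in cultured cells as raised by low oxygen, all were tested. With TMM 2 of them rose and 7 fell in neonatal libraries, while scaling to totals gave 6 rises and 4 falls. Of all tested miRNAs 29.1% were called higher and 34.1% lower with TMM, and 49.6% higher and 18.1% lower with totals. The list's median log2 fold change was -0.35, against -0.05 for all tested miRNAs, with TMM. miR-181b-5p, of a family that tunes T cell receptor signals, rose by 1.31 ± 0.14 (2343 ± 234 CPM in neonatal libraries, against 946 ± 69.5 CPM in adult libraries). miR-103-3p, encoded in introns of pantothenate kinase genes, rose by 0.88 ± 0.14. Both also rose with library totals.

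The members that fell with the smallest p had far more reads than miR-210-3p. miR-155-5p, needed by effector CD8+ T cells, had 375 ± 27 CPM in neonatal libraries, against 1265 ± 172 CPM in adult libraries (log2 fold change -1.75 ± 0.15). miR-26b-5p (-1.30 ± 0.16) and miR-26a-5p (-1.02 ± 0.14), known to restrain cell cycle genes, fell as well, and all 3 falls held with library totals. The most abundant member, miR-21a-5p, had 51295 ± 15121 CPM in neonatal libraries, against 58341 ± 18745 CPM in adult libraries, and did not pass the test (-0.19 ± 0.24, and 0.44 with library totals). miR-322-5p, with 2 to 22 reads per library, stood at 0.64 ± 0.39 and did not pass either, but it did with library totals (1.25, edgeR's adjusted p = 0.00991) and, at an edgeR adjusted p of 0.0257, after the GC correction (0.96).

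Of 13 miRNAs reported to act on HIF subunits or their regulators, 9 were tested. With TMM 3 were higher and 1 lower in neonatal libraries, while scaling to totals gave 8 rises and 1 fall. The rises of this list stand beside 29.1% of all tested miRNAs with TMM and 49.6% with totals. With TMM 3 of 9 is near the share of all miRNAs. The count is above that share with totals (8 of 9) and with an offset for GC content (6 of 9, beside 31.2%). The reading of this list therefore depends on the scaling. Their median log2 fold change was 0.27, against -0.05 for all tested. miR-31-5p, which targets an inhibitor of HIF, rose by 1.87 ± 0.26 to 25.7 ± 4.06 CPM in neonatal libraries, against 7.04 ± 1.60 CPM in adult libraries, a level like that of miR-210-3p. miR-18a-5p (1.60 ± 0.31) and miR-17-5p (0.58 ± 0.15) of the miR-17 to miR-92a cluster, known for driving lymphocyte growth, rose too. miR-20a-5p of the same cluster did not pass with TMM (0.06 ± 0.22).

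miR-155-5p, which is on both lists, was the single member that fell. miR-429-3p (-0.11 ± 0.22) and the abundant miR-20a-5p (0.06 ± 0.22) did not pass with TMM, but both did with library totals (0.51 and 0.68, edgeR's adjusted p of 0.0479 and 0.00928), and miR-20a-5p also, at an edgeR adjusted p of 0.0409, after the GC correction (0.42). The untested members were miR-135b-5p, with no read in any library, and miR-138-5p, miR-145a-5p and miR-199a-5p, with at most 9 reads in any library. With an offset for GC content 4 of the 14 tested miRNAs of the first list and 6 of the 9 of the second were higher in neonatal libraries, beside 31.2% of all tested miRNAs.

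**Figure D3:**
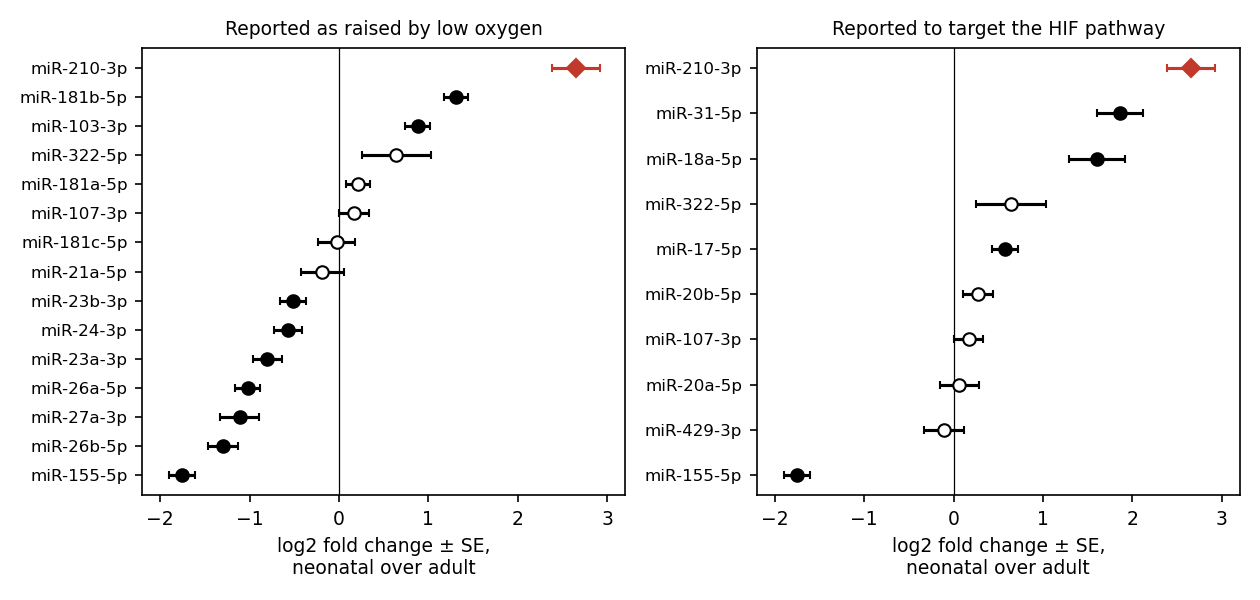
Log2 fold change with its SE, neonatal over adult, for the tested members of the lists reported as raised by low oxygen (left, 14 members) and as targeting the HIF pathway (right, 9 members), with filled points past an adjusted p of 0.05. miR-210-3p (red diamond, 2.65, a member of neither list) lies above all members of both, which run from -1.75 for miR-155-5p to 1.87 for miR-31-5p.

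The 5 tested miRNAs whose pattern over the 8 libraries lay closest to that of miR-210-3p were miR-3080-5p, miR-1983, miR-148a-3p, miR-212-5p and miR-542-3p. Likeness was the root mean square difference between profiles of log2 CPM, each centred on its own mean. It was 0.15 for miR-3080-5p, 0.25 for miR-1983, 0.26 for miR-148a-3p, 0.33 for miR-212-5p and 0.35 for miR-542-3p, against a median of 1.36 for all other tested miRNAs. Since the groups lie far apart, this likeness mostly restates the size of the difference between ages.

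These 5 spanned a wide range of levels. miR-148a-3p, which in mouse T helper cells restrains the cell death gene Bcl2l11, had 4645 ± 540 CPM in neonatal libraries, against 867 ± 167 CPM in adult libraries (log2 fold change 2.42 ± 0.17). miR-212-5p, of the pair of hairpins that responds to the factor CREB, had 63.3 ± 6.50 CPM in neonatal libraries, against 8.45 ± 3.06 CPM in adult libraries. miR-542-3p, of an X-linked cluster, had 46.6 ± 9.46 CPM in neonatal libraries, against 9.33 ± 4.94 CPM in adult libraries. miR-1983 had 17.7 ± 2.37 CPM in neonatal libraries, against 2.45 ± 0.896 CPM in adult libraries. miR-3080-5p, with 0 to 21 reads per library, had 7.44 ± 0.653 CPM in neonatal libraries, against 0.419 ± 0.297 CPM in adult libraries, and its log scale profile is pulled together by the prior count of 2.

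**Figure D4:**
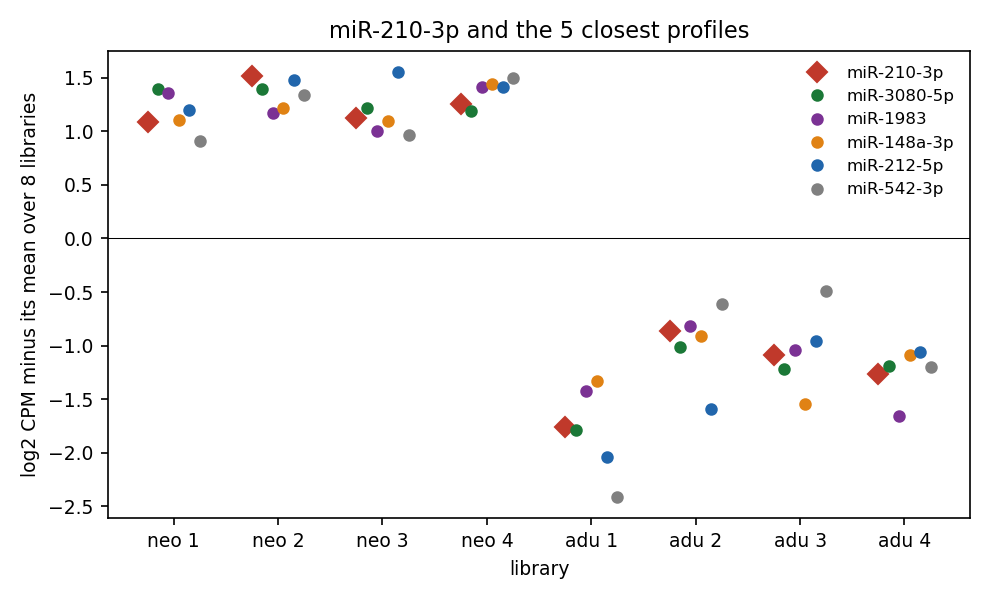
Log2 CPM of miR-210-3p (red diamonds) and its 5 closest miRNAs (circles) in each library, minus each miRNA's mean over the 8 libraries. All 6 lie above their mean in the 4 neonatal libraries and below it in the 4 adult ones, and miR-210-3p, miR-3080-5p, miR-212-5p and miR-542-3p are lowest in adult library 1.

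Magnetic enrichment leaves some other cells, and miRNAs typical of several such cells were also higher in neonatal libraries. The 5 erythroid miRNAs, of cells that express miR-210 while they mature, summed to 308 to 774 CPM in neonatal libraries, against 120 to 251 CPM in adult libraries. All 3 tested ones rose, with log2 fold changes of 0.97 ± 0.22 for miR-451a, the defining red cell miRNA, 1.84 ± 0.31 for miR-486a-5p and 1.82 ± 0.32 for miR-486b-5p, which share reads. miR-144-3p and miR-144-5p, of the miR-451a locus, had 1 to 9 and 5 to 19 reads in neonatal libraries, and 1 to 5 and 0 to 3 in adult libraries. In neonatal libraries 1 to 4 the erythroid sum was 774, 493, 731 and 308 CPM, beside 27.2, 37.0, 27.9 and 30.7 CPM of miR-210-3p. In adult libraries 1 to 4 it was 251, 120, 173 and 152 CPM, beside 2.91, 6.30, 5.23 and 4.51 CPM of miR-210-3p. Most of the erythroid sum in each group came from miR-486a-5p and miR-486b-5p. Their means were 257 ± 102 and 267 ± 108 CPM in neonatal libraries, against 72.6 ± 24.5 and 76.0 ± 27.8 CPM in adult libraries. miR-451a had 45.9 ± 6.83 CPM in neonatal libraries, against 23.5 ± 4.52 CPM in adult libraries. The sum therefore largely follows the miR-486 pair. The part of red cell RNA in the change of miR-210-3p was not tested.

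The endothelial miRNAs miR-126a-3p and miR-126a-5p summed to 125 to 160 CPM in neonatal libraries, against 46.6 to 76.9 CPM in adult libraries, and both rose. The 5 stromal miRNAs summed to 114 to 169 CPM in neonatal libraries, against 36.1 to 83.2 CPM in adult libraries. Of these the 3 tested ones (miR-143-3p, miR-199a-3p and miR-10b-5p) rose. The untested ones, at most 10 reads in any library, showed no such rise. miR-214-3p had a mean of 2.70 CPM in neonatal libraries, against 2.62 CPM in adult libraries, and miR-145a-5p 0.413 against 0.668 CPM. miR-199a-5p, the other strand of miR-199a, was also not higher (1.19 against 3.00 CPM). miR-143-3p lost its call without adult library 1 or adult library 4 (edgeR's adjusted p of 0.0649 and 0.0628). The myeloid miRNAs miR-223-3p and miR-223-5p were near 0 in both groups, with sums of 3.48 to 8.53 CPM in neonatal libraries, against 2.85 to 9.09 CPM in adult libraries. The leukocyte miRNAs miR-142a-3p, miR-142a-5p and miR-150-5p summed to 59002 to 61542 CPM in neonatal libraries, against 130019 to 194851 CPM in adult libraries, and all 3 fell, although miR-142a-3p did not pass with library totals (-0.72, edgeR's adjusted p = 0.0530) or without a filter (-1.28, edgeR's adjusted p = 0.0553). Most of each sum was miR-150-5p (54280 ± 2741 CPM in neonatal libraries, against 140425 ± 37899 CPM in adult libraries). The sum therefore largely follows that miRNA and does not measure the share of white blood cells. None of the 3 is particular to CD8+ T cells, so that label could not be checked more closely from them. The part of these cells in the change of miR-210-3p was not tested.

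The rise of miR-210-3p passed the test under all 21 other settings, with log2 fold changes of 2.19 to 3.27 and edgeR, limma or DESeq2 adjusted p of at most 5.52e-05. It was 2.51 without adult library 1, the library with 3 reads, and 2.21 ± 0.29 with an offset for GC content.

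**Figure D5:**
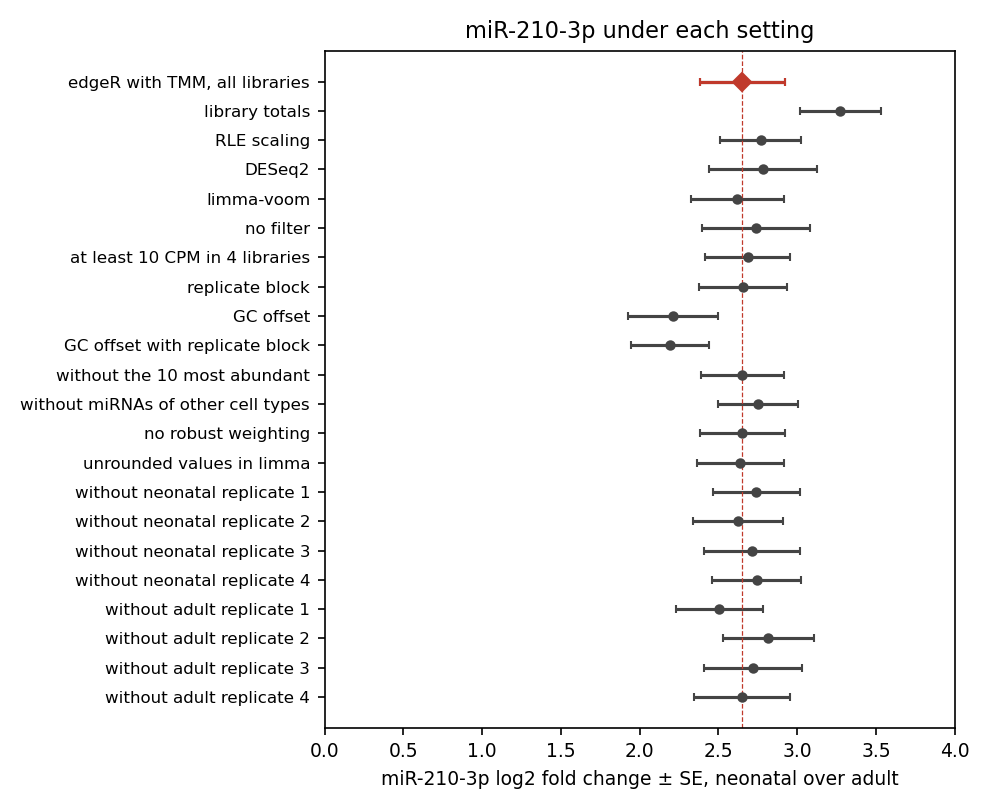
Log2 fold change of miR-210-3p, neonatal over adult, with its SE under the fit reported here (red diamond, 2.65) and 21 other settings. The points run from 2.19 with the GC offset and the replicate number as a block to 3.27 with library totals, and all lie above 0 by several SE.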

How the data were processed

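The values are unnormalized estimated counts, deposited with a row for each mature strand of a precursor, and 71.4% of the non-zero ones were whole within 0.001. The genome build was mm10, per the submitters' processing notes. No aligner, counter or miRNA release is named in the sources used here. Values were summed over precursors and rounded. miRNAs kept by filterByExpr (minimum count 10, minimum total 15; 375 kept) were tested by quasi-likelihood in edgeR 4.0.16 (R 4.3.3), with TMM factors, robust dispersions and age as the only term; the standard error is the fold change over the root of F. The fit was tested on simulated data. The intended fit of the ratio of arms across hairpins asked for 10 reads of each arm, which miR-210-5p lacks, so exact permutation tests over libraries were used for it and for its share. Sequences are from RefSeq (GRCm38.p6), the fold from RNAfold 2.7.2 and genes from GENCODE M21. Named miRNAs were both strands, the 5 closest profiles, in each hypoxia list the 3 smallest p in each direction and the most abundant, and all markers of other cells; others are named as examples. Members and lists were chosen with earlier results of these data known. Same-numbered neonatal and adult libraries deviated together from their group means (r = 0.256 to 0.415 over miRNAs). For numbers 3 and 4, however, an unlike-numbered pair reached a higher r (0.397 and 0.482) than the same-numbered one (0.256 and 0.393). The check therefore does not settle whether the number pairs the libraries, and the main fit does not use it. DESeq2 1.42.0, limma 3.58.1, scaling, filters, GC content (sequence found for 83.7% of tested miRNAs), the replicate block and leaving out each library were varied.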

Additional observations from a re-analysis of the deposited data

Results flagged for a closer look

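In 3 of 72 groups of 4 libraries looked at, 1 library stood apart from the other 3 by more than Dixon's 95% critical share of the group's range; chance gives about 1 in 20. For miR-210-5p in adult libraries the gap was 1.00 of the range, since adult library 1 held its only read. For miR-144-3p in neonatal libraries, at 1 to 9 reads, it was 0.846. For miR-181b-5p in neonatal libraries it was 0.854.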

How the results depend on the processing

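miR-210-3p kept its direction and its call under all 21 other settings, and was 2.51 to 2.82 when 1 library was left out. The replicate block gave 2.65 ± 0.28 (edgeR's adjusted p = 1.74e-08) and changed no call of miR-210-3p and no count of either hypoxia list. For miR-210-5p the difference was 0.0476 to 0.486 CPM without 1 library, and a sign-flip over the replicate number as a block gave 0.243 CPM with no call. Library totals gave 0.398 CPM and RLE scaling 0.275 CPM (exact permutation p of 0.429 for both). Values from the alternatives that refit all miRNAs are not given for miR-210-5p, although the fit without a filter included it. The 5p share of the hairpin, which differed by -1.38 percentage points (neonatal minus adult), was -2.90 to 1.65 without 1 library, and turned to 1.65 without adult library 1, which holds the only adult 5p read. With library totals 186 miRNAs were higher and 68 lower in neonatal libraries, so that 73.2% of calls were higher in place of 46.0% (109 higher, 128 lower). The list reported as raised by low oxygen then had 6 higher and 4 lower, and that targeting the HIF pathway 8 higher. With the GC offset, with or without the replicate block, the lists had 4 and 6 higher. The depth limits adult values most, where 3 to 11 reads carry miR-210-3p. The remaining alternatives for the ratio of arms could not be fitted for want of 5p reads.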
